A study of Rattus norvegicus with 48 samples.

Results

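Bipolar cells carry the signals of rods and cones to the inner retina, and 9 genes that mark them or work in them were followed here in rat eye RNA. The genes were Grm6, Trpm1, Gng13, Pcp2, Prkca, Cabp5, Scgn, Isl1 and Vsx1, taken by symbol from 32883 genes in each of 2 count tables. All 9 were present in both tables. Read counts came from 24 female Long-Evans rats, with 1 retina library and 1 posterior eye library per animal. Animals were 3 to 4 months old (young) or 9 to 10 months old (called middle-aged in the study's design text and aged here), and had either ovariectomy (OVX), which removes the ovaries, or a sham operation. Surgery and age together gave 4 groups of 6 animals in each tissue. The labels name no genetic change and no drug, and do not say how long after surgery the eyes were taken. The question was whether the bipolar genes differed with OVX or age in the retina, with the posterior eye set against it.

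ON bipolar cells, which respond to light onset, receive glutamate from photoreceptors through the metabotropic receptor mGluR6, encoded by Grm6. In darkness this receptor acts through the G protein Go to keep the cation channel TRPM1 closed, and at light onset the channel opens. OFF bipolar cells use ionotropic glutamate receptors instead. Gng13 encodes a G protein gamma subunit of ON bipolar cells, and Pcp2 a modulator of Go. Prkca, encoding protein kinase C alpha, is the standard marker of rod bipolar cells. Cabp5 and Scgn (secretagogin) encode calcium-binding proteins of bipolar subtypes. Isl1 encodes a homeodomain factor of ON bipolar cells that ganglion and some amacrine cells also make, and Vsx1 one of a subset of cone bipolar cells. Trpm1 was first known as melastatin, a gene of melanocytes.

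The sequences just before the starts of the receptor gene and its channel gene are shown because these genes act in 1 pathway. Their levels were correlated between retina libraries (r = 0.545), which did not pass after group means were removed. They are the 250 bases before the annotated start in the RefSeq annotation of GRCr8, a later build than that of the counts. Grm6 lies at chr10:35668753-35669002 and Trpm1 at chr1:127130436-127130685, both on the plus strand. Capitals mark a match to TAATCC or its reverse complement GGATTA, the core motif bound by the retinal factors OTX2 and CRX.
Grm6: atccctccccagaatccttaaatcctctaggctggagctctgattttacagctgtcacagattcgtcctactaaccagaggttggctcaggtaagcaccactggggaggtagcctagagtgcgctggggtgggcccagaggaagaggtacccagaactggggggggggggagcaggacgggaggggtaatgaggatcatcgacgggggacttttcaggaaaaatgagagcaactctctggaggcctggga
Trpm1: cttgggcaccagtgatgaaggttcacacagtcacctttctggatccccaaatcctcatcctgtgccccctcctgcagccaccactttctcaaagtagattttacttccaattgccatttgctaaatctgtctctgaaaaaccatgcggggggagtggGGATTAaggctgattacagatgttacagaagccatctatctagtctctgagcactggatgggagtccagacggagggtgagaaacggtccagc
The window of Trpm1 held 1 match, 93 bases before the start. Windows were found for 8 of the 9 genes (Cabp5 was not among them), and 1 of these 8 held a match. Over all 33469 windows of this length, 6.337% held one. A match is a description of letters, not of binding.

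Retina libraries held 12916146 to 30737547 reads and posterior eye libraries 11470945 to 22971367. All 9 genes passed the filter on low counts in the retina, and 8 in the posterior eye, where Gng13 did not. The retina libraries held rod genes at a summed 93032 to 112452 CPM (counts scaled to library size, with TMM factors) over 14 rod genes. Lens genes summed to 3446 to 63763 CPM over 11 genes in the same libraries. Pigment epithelium genes summed to 88.5 to 641 CPM over 9 genes, so the levels of both lists were unequal between retina samples. Which cells this RNA came from was not tested. The labels name each library by its own animal. Library numbers run in the order of the groups, so order of handling and group cannot be told apart. In bulk RNA, fewer bipolar cells and less RNA per bipolar cell cannot be told apart. Levels were not compared between genes, since the counts were not divided by transcript length.

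Every gene was detected in all 24 retina libraries, which does not by itself show that the RNA came from bipolar cells. Gng13 was the sparse one, with 6 to 37 reads per library, against 441 or more for each other gene except Vsx1, which had 348 or more. Between the 24 retina libraries the coefficient of variation in CPM was smallest for Scgn at 7.31% and largest for Gng13 at 35.2%. Prkca, Pcp2, Isl1, Trpm1 and Grm6 varied by 10.5% to 11.7%, and Cabp5 and Vsx1 by 17.3% and 17.4%.

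**Figure D1:**
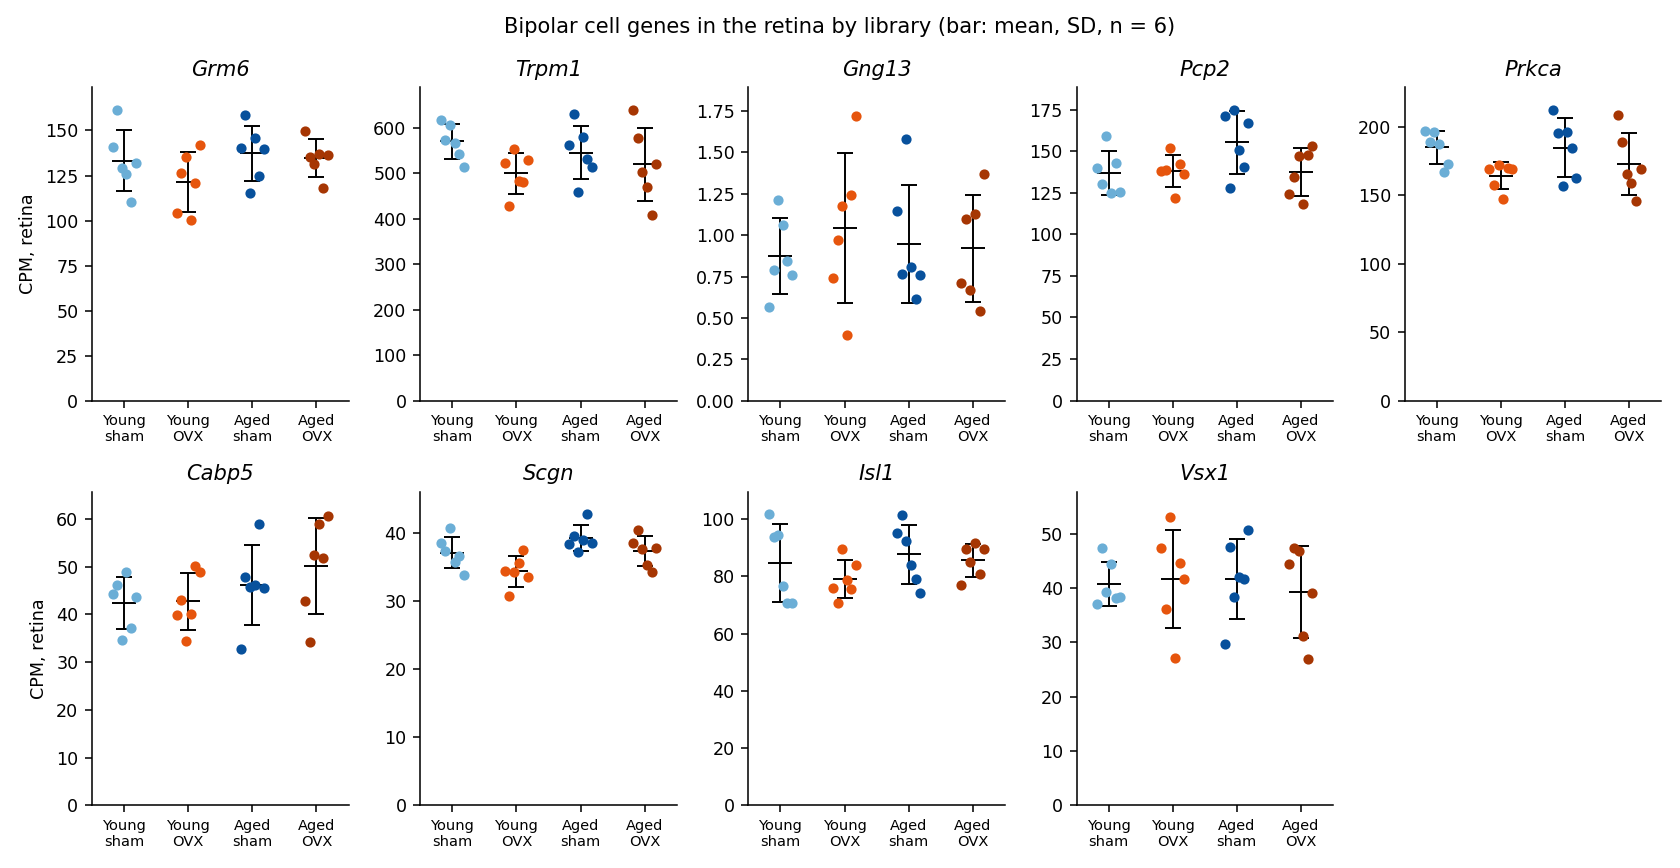
Level of each bipolar gene in CPM (vertical axes, from 0) in the 24 retina libraries, 1 point per library, by group, with mean and SD of 6. The groups overlap in every panel, and Trpm1 and Prkca have all 6 young OVX libraries below the young sham median.

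OVX left all 9 bipolar genes without a call in the retina at either age. The largest estimates among the well-counted genes were -12.3% for Trpm1 in young OVX retina, -11.4% for Pcp2 in aged OVX retina and -11.2% for Prkca in young OVX retina, with groups that overlapped. Grm6, Isl1, Cabp5 and Vsx1 differed by less than the spread between animals. In each of the 6 retina comparisons 0 of 9 were called at an adjusted p under 0.05 (edgeR's quasi-likelihood test with Benjamini-Hochberg adjustment over 15481 genes). Calls were rare over all genes tested too, at 0.0194% for OVX in young animals (0.0129% higher and 0.00646% lower), 0.00646% in aged animals and 0.0517% averaged over both ages (0.0258% in each direction). At an unadjusted p under 0.05 lay 3, 1 and 3 of the 9 genes in these comparisons, beside 11.7%, 6.47% and 10.8% of all genes. DESeq2 and limma-voom called 0 of 9 as well. The summed pigment epithelium level moved with the groups, at 179 ± 59.6 CPM in young sham and 318 ± 76.8 in young OVX, against 300.3 ± 169 in aged sham and 119 ± 30.9 in aged OVX (SD, n = 6). With that level, or the lens level, as a term in the fit, 0 of 9 were called too.

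Trpm1, the channel, stood at 513, 569.7 and 617 CPM (lowest, median, highest) in young sham retina and at 428, 503 and 553 in young OVX. In aged animals it stood at 458, 546 and 630.1 CPM in sham and 408, 511 and 638 in OVX. All 6 young OVX libraries lay below the young sham median, yet the ranges overlapped, and in aged animals 4 of 6 lay below. The means were 569.8 ± 39.0 and 499.5 ± 44.8 CPM in young animals (SD, n = 6), a log2 fold change of -0.19 ± 0.09 (SE, adjusted p = 0.392 by edgeR). Its 95% interval ran from -22.4% to -0.966%. In aged animals the log2 fold change was -0.07 ± 0.09 (adjusted p = 0.942, edgeR).

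Grm6, the receptor upstream of that channel, stood at 110.4, 130.4 and 161 CPM in young sham and 100.2, 124 and 142 in young OVX. The aged values were 115, 140.1 and 158 CPM in sham and 118, 136 and 150.0 in OVX. At both ages the ranges overlapped over most of their length. The log2 fold change was -0.13 ± 0.09 in young animals (adjusted p = 0.598, edgeR) and -0.03 ± 0.09 in aged animals (adjusted p = 0.985). Averaged over both ages the interval ran from -13.5% to 3.497%.

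Gng13 stood at 0.568, 0.815 and 1.21 CPM in young sham and 0.40, 1.07 and 1.72 in young OVX. With so few reads the interval of its averaged OVX effect ran from -18.2% to 47.3%, so a change of that size was not detectable at this depth. Pcp2, the modulator of Go, had medians of 135 and 139 CPM in young sham and OVX. In aged animals it stood at 128, 159 and 175 CPM in sham and 118, 141 and 153 in OVX, with 6 of 6 OVX libraries below the sham median and ranges that overlapped. That aged difference was -0.17 ± 0.08 on the log2 scale (adjusted p = 0.75 by edgeR, unadjusted p under 0.05).

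Prkca, the rod bipolar marker, stood at 167, 188 and 197 CPM in young sham and 147, 169 and 172 in young OVX. All 6 young OVX libraries lay below the young sham median, and the highest of them lay above the lowest sham library. The log2 fold change was -0.17 ± 0.08 in young animals (adjusted p = 0.385, edgeR) and -0.10 ± 0.08 in aged animals (adjusted p = 0.878). Averaged over both ages it was -0.13 ± 0.05 (adjusted p = 0.346 by edgeR), with an interval from -15.6% to -1.59%. Aged sham libraries ranged from 157 to 213 CPM and aged OVX libraries from 146 to 208.

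The calcium-binding proteins had averaged estimates of opposite sign, and neither was called. Scgn stood at 33.8, 36.9 and 40.6 CPM in young sham and 30.7, 34.3 and 37.5 in young OVX, with 5 of 6 OVX libraries below the sham median. In aged animals it stood at 37.1, 38.7 and 42.8 CPM in sham and 34.2, 37.6 and 40.3 in OVX, again with 5 of 6 below. Its averaged OVX effect had the smallest p of the 9 genes, -0.09 ± 0.04 on the log2 scale (adjusted p = 0.336, edgeR), and an interval from -10.9% to -1.20%. Cabp5 had medians of 43.96 and 41.6 CPM in young sham and OVX, and of 46.1 and 52.1 in aged sham and OVX. Its averaged effect was 0.06 ± 0.09 (adjusted p = 0.851, edgeR), with an interval from -8.37% to 19.0%.

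Both transcription factors varied mostly within groups. Isl1 stood at 70.6, 85.1 and 102 CPM in young sham and 70.8, 77.3 and 89.7 in young OVX. Its averaged effect was -0.07 ± 0.06 (adjusted p = 0.738 by edgeR). Vsx1 had medians between 38.8 and 43.2 CPM in the 4 groups, inside single-group ranges as wide as 27.2 to 53.2 CPM. Its averaged effect was -0.03 ± 0.10 (adjusted p = 0.953, edgeR).

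**Figure D2:**
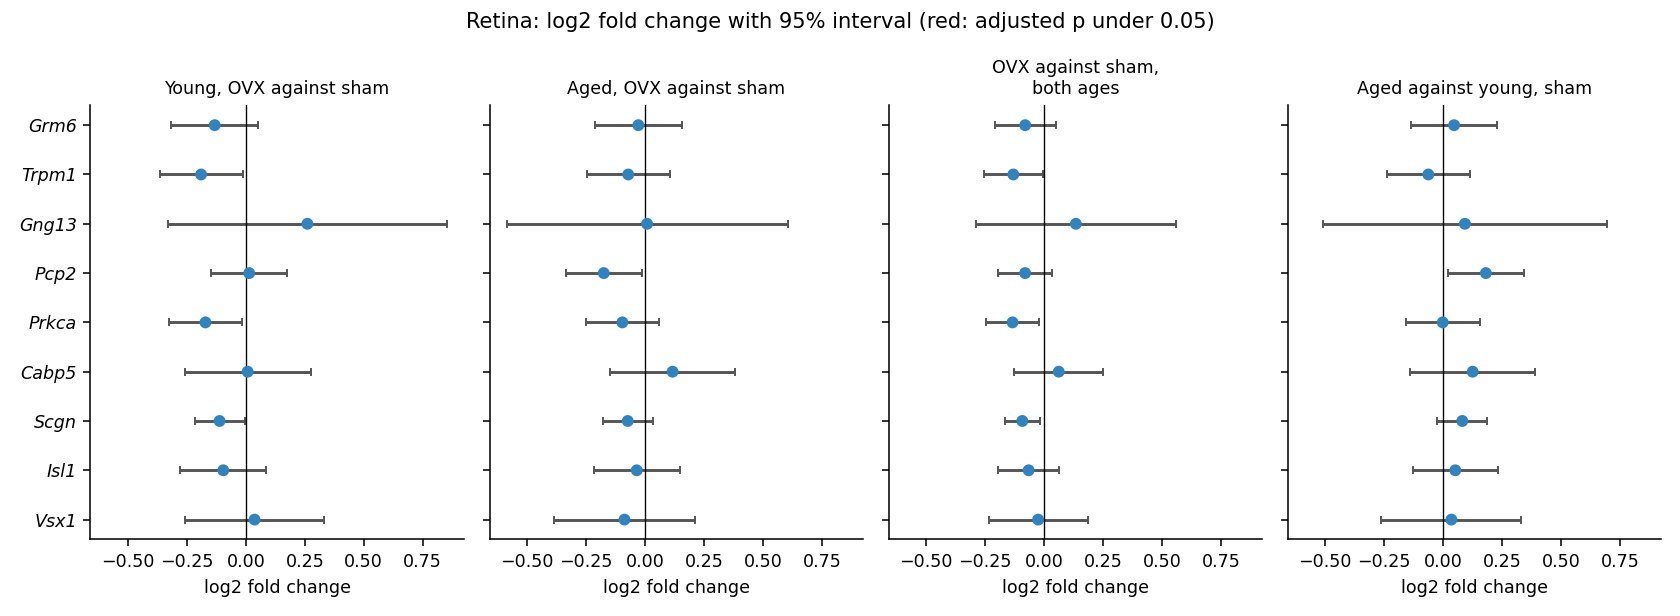
Log2 fold change (horizontal axes) with its 95% interval for each bipolar gene in 4 retina comparisons, from edgeR. No point is red, the colour of a call. The interval of Gng13 is the widest in each panel.

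Age was compared within sham animals and within OVX animals. The summed lens level of the retina also differed with age, at 37659 ± 20061 CPM in young sham and 14113 ± 10946 in aged sham. In OVX animals it was 37787 ± 18718 CPM in young and 26348.5 ± 12917 in aged (SD, n = 6). With the lens level as a term in the fit, 0 of 9 were called for age. In sham retina 0 of 9 genes were called, beside 0.0388% of all genes (0.0258% higher and 0.0129% lower). In OVX retina 0 of 9 were called, beside 0.0711% (0.0388% higher and 0.0323% lower). At an unadjusted p under 0.05 lay 1 of 9 in each, beside 10.7% of all genes in sham and 9.23% in OVX, and DESeq2 and limma-voom called 0. Pcp2 had the largest well-counted estimate in sham, with 5 of 6 aged libraries above the young median and a log2 fold change of 0.18 ± 0.08 (adjusted p = 0.397, edgeR). Prkca was level in sham, at 185 ± 12.2 CPM in young and 185 ± 21.4 in aged animals (SD, n = 6), with an interval from -10.4% to 11.3%. In OVX animals Cabp5 had the largest estimate, 0.23 ± 0.13 (adjusted p = 0.605, edgeR), with 5 of 6 aged libraries above the young median. Scgn had 5 of 6 above in OVX animals, and a log2 fold change of 0.12 ± 0.05 (adjusted p = 0.466 by edgeR). In sham animals Scgn had 6 of 6 above, and a log2 fold change of 0.08 ± 0.05 (adjusted p = 0.593, edgeR). Whether age changed the OVX effect was tested with an interaction, where 0 of 9 were called beside 0.0452% of all genes. The smallest interaction p belonged to Pcp2 at -0.19 ± 0.11 (adjusted p = 0.826, edgeR).

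The other genes of the mGluR6 pathway were taken from a list of 11, of which 10 were tested in the retina. It held Gnao1, the alpha subunit of Go, and Rgs7, which speeds the return of Go to rest. Gnb3 and Gnb5, which each encode a G protein beta subunit, were on the list too. It also held Gpr179, Nyx and Lrit3, which help to assemble the receptor complex at the dendrites. With OVX averaged over both ages 0 of 10 were called in either direction, and 7 of 10 lay below 0 with a median log2 fold change of -0.05. The median over all tested genes was -0.00. Gnao1 stood at -0.04 ± 0.03 (adjusted p = 0.578, edgeR). Gnb5, named after its value was seen, had the smallest p of the list, at -0.11 ± 0.04 (adjusted p = 0.279, edgeR). The 9 bipolar genes had a median of -0.08 in the same comparison, with 7 below 0.

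How far the bipolar genes varied together was measured over the 24 retina libraries as the Pearson correlation of log2 CPM, for all 36 pairs. Of these, 5 passed an adjusted p of 0.05 (permutation test, Benjamini-Hochberg over the 36 pairs), and all 5 were positive. They tied Trpm1 and Prkca to each other and each of these to Grm6 and Scgn. Grm6 with Scgn did not pass (r = 0.285, adjusted permutation p = 0.398). Trpm1 and Prkca were the closest pair, with r = 0.88 and Spearman's rho = 0.891 (permutation p = 1e-05, the smallest the resampling can give). Within the groups their r was 0.888 in young sham, 0.595 in young OVX, 0.804 in aged sham and 0.989 in aged OVX, over 6 libraries each. Without the 2 libraries farthest from the median of Trpm1 it was 0.863.
Grm6 was tied to Prkca (r = 0.618, rho = 0.617, adjusted permutation p = 0.0225) and to Trpm1 (r = 0.545, rho = 0.59, adjusted permutation p = 0.0415). Without the 2 farthest libraries these were 0.569 and 0.596. Scgn was tied to Trpm1 (r = 0.582, rho = 0.601) and Prkca (r = 0.581, rho = 0.563), each with an adjusted permutation p of 0.0271. Without the 2 farthest libraries these were 0.408, which no longer passed, and 0.589. After group means were removed, 3 of the 5 pairs passed, namely Trpm1 with Prkca, Trpm1 with Scgn and Grm6 with Prkca. Within groups, Trpm1 with Scgn ranged from 0.308 in aged sham to 0.886 in young sham, and Grm6 with Trpm1 from 0.204 in young OVX to 0.91 in aged sham. Cabp5, Vsx1, Isl1, Pcp2 and Gng13 were in none of the 5 pairs. How many pairs of other retina genes would pass was not computed, so 5 of 36 has no background beside it.

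**Figure D3:**
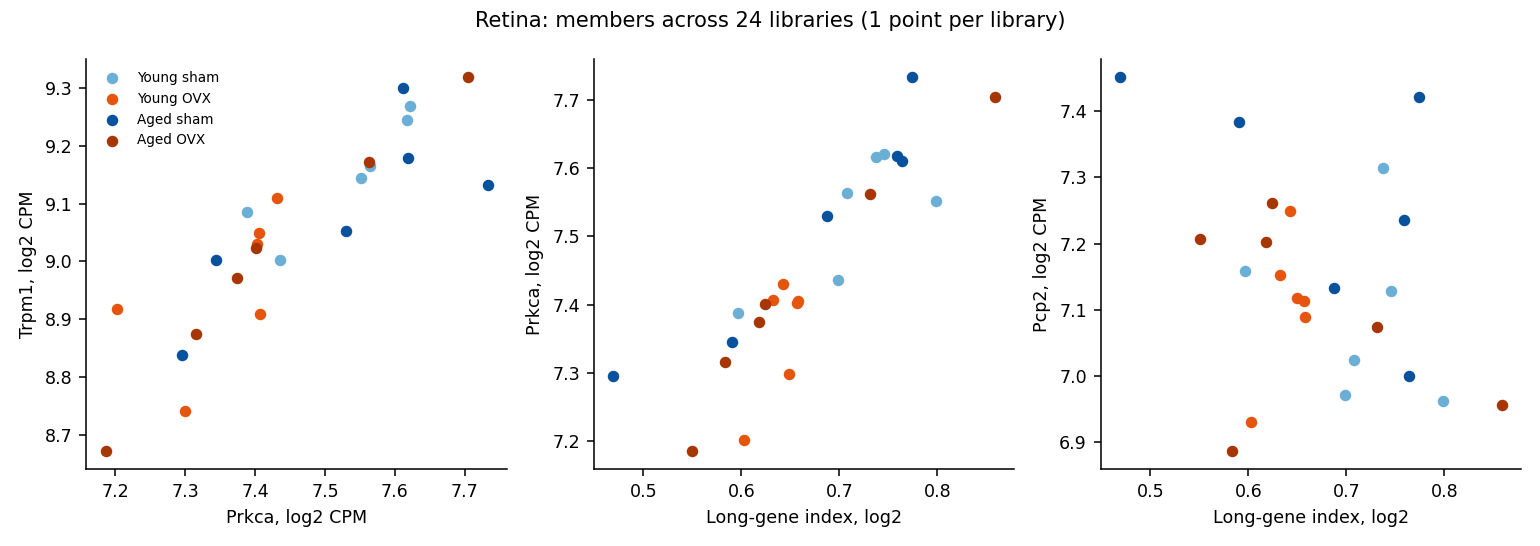
Each point is 1 of 24 retina libraries, coloured by group. The left panel plots Trpm1 against Prkca (log2 CPM), the middle panel Prkca and the right panel Pcp2 against the long-gene index, the mean log2 CPM of long genes minus that of short genes. Prkca follows both Trpm1 (r = 0.88) and the index (r = 0.885), while Pcp2 does not pass the test against the index (r = -0.32).

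A measure of the RNA profile moved with 3 of these genes. The long-gene index, added after the pairs were seen, is the mean log2 CPM of the 10% of genes with the longest genomic span minus that of the 10% with the shortest. It ranged from 0.469 to 0.859 between retina libraries. Over 9 relations it was correlated with Prkca (r = 0.885, rho = 0.917, adjusted permutation p = 4.5e-05), Trpm1 (r = 0.80, rho = 0.83, adjusted permutation p = 4.5e-05) and Grm6 (r = 0.534, rho = 0.537, adjusted permutation p = 0.0213). Without the 2 libraries farthest from its median these r values were 0.904, 0.767 and 0.452. The other 6 genes did not pass, and Pcp2 had r = -0.32. The share of all retina genes that would pass against the index was not computed. The count of 3 is therefore not shown to be particular to the bipolar genes.
The index was 0.714 ± 0.0674 in young sham and 0.64 ± 0.0208 in young OVX (SD, n = 6; two-sided exact permutation p = 0.0325, adjusted p = 0.13 over 4 comparisons). In aged sham and aged OVX it was 0.674 ± 0.122 and 0.661 ± 0.114 (exact permutation p = 0.84, adjusted p = 0.84). With the index as a covariate, the young OVX estimate of Trpm1 went from -0.19 to -0.09 on the log2 scale, that of Prkca from -0.17 to -0.07 and that of Grm6 from -0.13 to -0.06. With the index removed from both genes of a pair, 5 pairs passed, 3 of them among the first 5. Trpm1 with Prkca then had r = 0.614. The pairs of Grm6 with Trpm1 (r = 0.232) and with Prkca (r = 0.37) no longer passed. Newly passing were Pcp2 with Prkca (r = 0.655, adjusted permutation p = 0.0106) and Prkca with Isl1 (r = 0.58, adjusted permutation p = 0.0269). Before removal, Pcp2 with Prkca had r = 0.005. Why the index differed between libraries was not tested.

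The genes most like the bipolar genes as a group were found by correlating 9490 other retina genes at 10 CPM or more with the mean standardised level of the 9 genes over 24 libraries. The 5 highest were Drd2, a dopamine receptor (r = 0.827), Mtus2 (r = 0.799), Ankrd6 (r = 0.782), Cpeb3, which binds mRNA and regulates translation (r = 0.781), and Hecw1, a ubiquitin ligase (r = 0.764). The 99th percentile over all 9490 genes was 0.646. These values carry no test, since the highest were picked.

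In the posterior eye the same genes varied widely between animals of 1 group. Grm6 stood at 1.09, 14.4 and 38.3 CPM (lowest, median, highest) in young sham, 0, 3.26 and 33.6 in young OVX, 0.0661, 9.22 and 36.2 in aged sham and 0, 4.52 and 33.2 in aged OVX. Pcp2 ranged over all 24 libraries from 0.0512 to 49.6 CPM, Isl1 from 0 to 29.2, Vsx1 from 0 to 13.1, Cabp5 from 0 to 14.1 and Scgn from 0.0512 to 12.2. Trpm1 and Prkca were never near 0, at 62.2 to 268 CPM and 13.4 to 64.9 CPM. Grm6 had 0 reads in 2 libraries, which allows up to 0.182 CPM (3 reads, counting error only). Gng13 had 0 reads in 13 of 24.

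These levels followed the rod level of the same library, the mean log2 CPM of the 14 rod genes, which ranged from 2.16 to 9.88 between posterior eye libraries. The correlation with it was 0.988 for Grm6, 0.992 for Pcp2, 0.992 for Isl1, 0.977 for Scgn, 0.969 for Cabp5 and 0.965 for Vsx1 over 24 libraries. It was lower for Prkca (0.906), Trpm1 (0.798) and Gng13 (0.699). Spearman's rho lay between 0.776 and 0.99. All 9 passed among 27 relations computed (adjusted permutation p of 0.00087 or less), and r after removal of group means lay between 0.685 and 0.994. Without the 2 libraries farthest from the median rod level, r lay between 0.706 and 0.989. The share of all tested genes that would pass against the rod level was not computed. The count of 9 is therefore not shown to be particular to the bipolar genes.
Against the mean level of 5 melanocyte genes, Trpm1 had r = 0.245 (rho = 0.264, adjusted permutation p = 0.517), and 0.495 without the 2 farthest libraries. Against 9 pigment epithelium genes it had r = 0.491 (rho = 0.297, adjusted permutation p = 0.0361), and 0.127 without the 2 farthest libraries, so that relation rests on those 2. No other bipolar gene passed against either list. The 3 libraries with the lowest rod level came from a young OVX, an aged sham and an aged OVX animal (animals 9, 16 and 20). There Grm6 stood at 0, 0.0661 and 0 CPM, while Trpm1 stood at 134, 70.9 and 76.0 and Prkca at 14.6, 16.6 and 16.4.

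**Figure D4:**
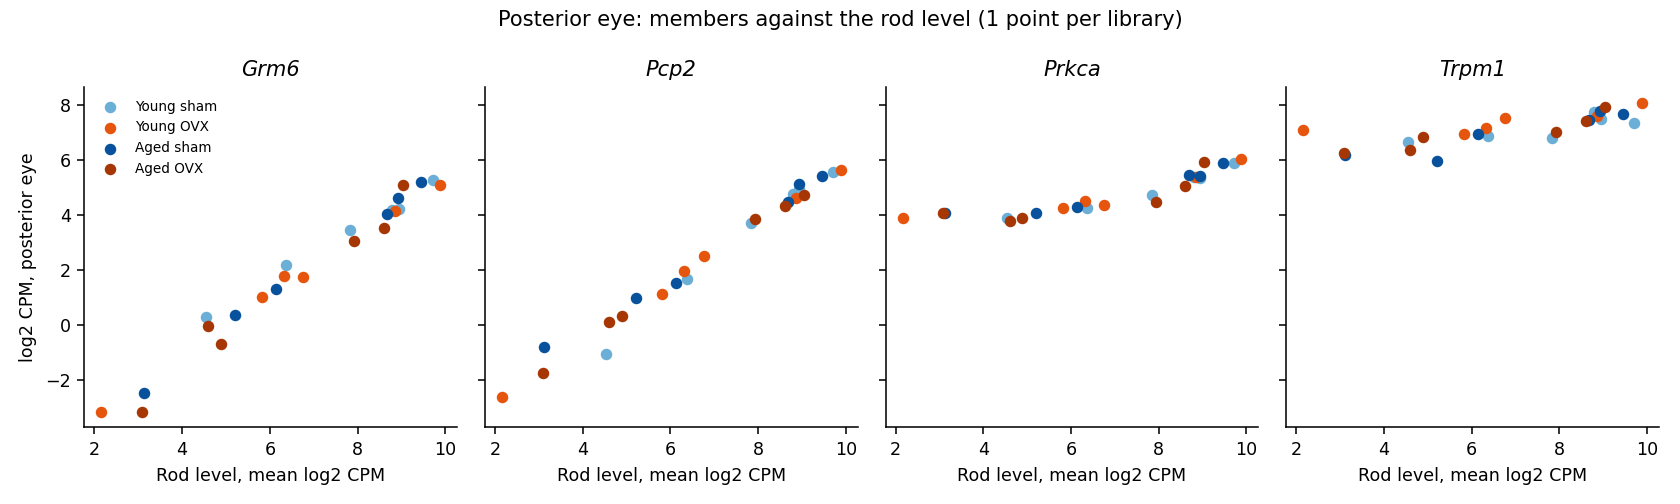
Level of Grm6, Pcp2, Prkca and Trpm1 (log2 CPM, vertical axis) against the rod level (horizontal axis) in 24 posterior eye libraries, coloured by group. Grm6 and Pcp2 fall along the whole range (r = 0.988 and 0.992), whereas Prkca and Trpm1 spread more widely (r = 0.906 and 0.798) and never reach 0.

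No bipolar gene was called for OVX or age in the posterior eye. In each of the 6 comparisons 0 of 8 tested genes were called by edgeR, beside 0.0061% of all genes for OVX in young animals and 0% in the other 5. At an unadjusted p under 0.05 lay 0 of 8 in each of the 6, beside 2.57% to 10.1% of all genes, and DESeq2 and limma-voom called 0 as well. The estimates were loose. The averaged OVX effect was -0.59 ± 0.85 for Grm6, with an interval from -80.4% to 125%, and -0.61 ± 0.83 for Pcp2. It was tighter for Prkca (-0.23 ± 0.32) and Trpm1 (0.09 ± 0.22, from -22.7% to 46.98%). The mean rod level was 7.70 ± 1.93 in young sham and 6.63 ± 2.7 in young OVX, and 6.92 ± 2.51 in aged sham and 6.36 ± 2.48 in aged OVX (log2 CPM, SD, n = 6). When the rod level entered the fit, the averaged estimate was -0.24 for Grm6, -0.08 for Pcp2, 0.01 for Prkca and 0.28 for Trpm1, with 0 of 8 called.

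Set against the retina in 1 fit over all 48 libraries, all 9 genes were lower in the posterior eye, beside 45.2% of all genes called lower and 93% called in either direction. Trpm1 fell by 1.73 on the log2 scale (SE 0.12) and Prkca by 2.40 (SE 0.17). The other 7 fell by 3.12 to 3.45. The size for these 7 depended on the fit, at -3.70 (Gng13) to -5.02 (Grm6) with limma-voom and -3.49 (Gng13) to -4.31 (Grm6) with the animal as a block. Trpm1 was -1.81 in both and Prkca -2.58 in both. Rod genes had a median of -3.18 over 14 genes, melanocyte genes 5.93 over 5, and the mGluR6 list -3.13 over 10. The adjusted p was 7.27e-18 for Trpm1 and 5.84e-09 for Pcp2, the lowest and the highest of the 9 (edgeR). With the animal as a block all 9 remained called. The OVX effect was also compared between tissues, and 0 of 9 genes were called, beside 0.00583% of all genes. The interval of that difference ran from -76.0% to 113% for Grm6.

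Since each animal gave both tissues, the posterior eye level was also expressed as a share of the level in the retina of the same animal, a comparison added after the levels were seen. The summed rod genes had a mean share of 11.3% ± 11.5 (SD, n = 24 animals) and a median of 6.4%, with a range from 0.346% to 39.9%. Isl1 (11.3%), Vsx1 (11.1%), Cabp5 (11.0%), Scgn (11.0%) and Pcp2 (12.0%) had mean shares that did not differ from that of the rod genes beyond the spread between animals. For Isl1 the difference was 0.04 ± 2.04 percentage points (SD) and for Pcp2 0.75 ± 1.75 (adjusted permutation p = 0.105 over 9 genes). Gng13 gave 12.3%, from 0 to 6 reads per posterior eye library. Grm6 lay slightly lower, at 9.94%, 1.36 percentage points below the rod genes and below them in 21 of 24 animals (permutation test by sign flips, adjusted p = 0.00237).
Trpm1 and Prkca stood apart. The share of Trpm1 was 30.7% ± 11.7 (SD, n = 24), above the rod share in 23 of 24 animals by a mean of 19.4 percentage points (adjusted permutation p = 4e-05). The share of Prkca was 19.1% ± 10.5, above the rod share in 23 of 24 animals by 7.78 points (adjusted permutation p = 4e-05). The exception for both was young sham animal 1, with 32.8% for the rod genes, 28.3% for Trpm1 and 32.3% for Prkca. The lowest shares were 13.6% for Trpm1 and 8.37% for Prkca, against 0.346% for the rod genes. With the summed amacrine genes as reference in place of the rod genes (15.1% ± 11.2), Trpm1 and Prkca were still higher, in 23 and 22 of 24 animals. Against that reference Grm6, Pcp2, Cabp5, Scgn, Isl1 and Vsx1 were all lower. The amacrine genes did not fall alike between tissues, with log2 fold changes from -3.38 to 0.404. Their summed share was never below 4.43%, against 0.346% for the rod genes, so the lower shares hold relative to this list only. Melanocyte genes summed to 1253 to 4879 CPM in the posterior eye and 35.7 to 127 in the retina. Which cells of the posterior eye hold Trpm1 and Prkca was not tested.

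**Figure D5:**
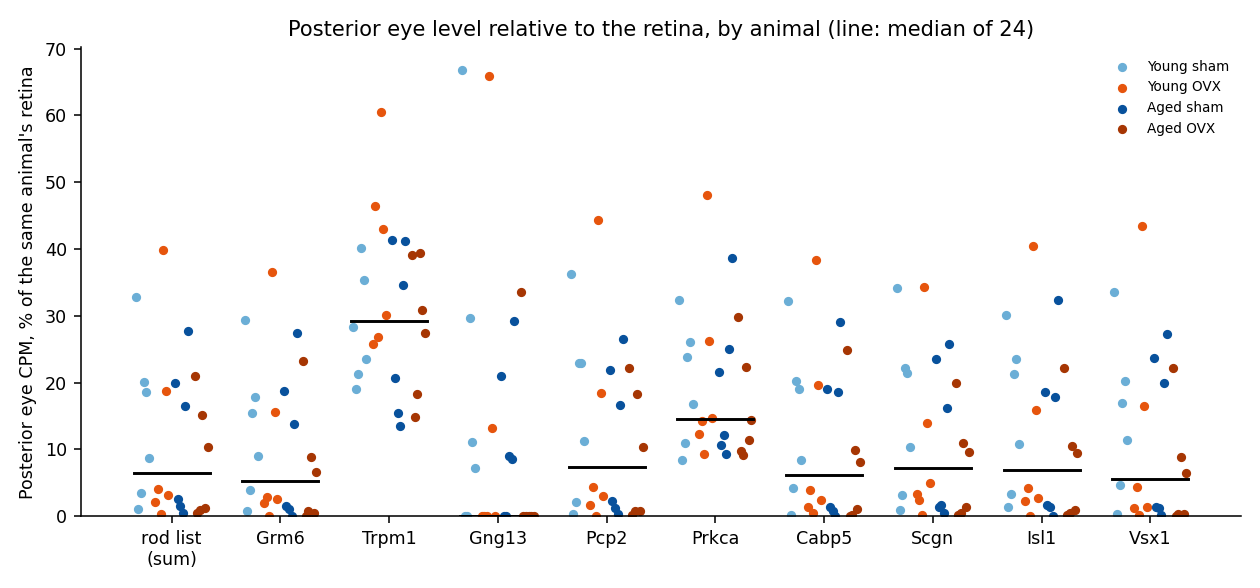
Posterior eye level of the summed rod genes and each bipolar gene as a percentage of the retina level of the same animal (vertical axis), 1 point per animal, coloured by group, with a line at the median of 24. Trpm1 and Prkca have no animal below 13.6% and 8.37%, while the rod genes and the other bipolar genes reach 0.346% or less.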

How the data were processed

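RNA was measured in 24 retina and 24 posterior eye libraries. The deposited values are raw read counts per gene, whole numbers that were not normalized. STAR 2.7.3a, HTSeq, DESeq2 and the build Rnor_6.0 are named in the submitters' processing notes, while the annotation and the counting options were not given in the sources used here. The library kit named in the labels' protocols does not mark strand. Samples were grouped by their labels. The 9 genes and the gene lists were chosen with earlier results of these data known.

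Each tissue was fitted with edgeR 4.0.16 (TMM scaling, filterByExpr, quasi-likelihood test, Benjamini-Hochberg adjustment over all tested genes, threshold 0.05) on 4 groups, in R 4.3.3. That tested 15481 genes in the retina and 16401 in the posterior eye. Between tissues, 17153 genes were tested on all 48 libraries after 25 symbols damaged into dates were left out. Same-animal libraries pair the tissues by design. Their deviations from group means correlated at -0.0409 to 0.283 (median 0.0696) over 14773 genes in 24 animals. DESeq2 1.42.0, limma-voom (limma 3.58.1), other scaling, no filter, covariates and left-out libraries were alternatives. Scripts were tested on simulated data.

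Log2 CPM used a prior count of 2. Correlations used permutation tests with 100000 resamples in numpy 2.4.6. The exact permutation tests of the index between groups used scipy 1.17.1. The long-gene index used gene spans of RefSeq GRCr8, matched by symbol for 85.3% of tested genes, with spans of 141978 bases or more against 4493 or less. The index, its relations, the posterior eye relations and the shares were added after the data were seen. Genes outside the 9 were named where called (up to 3 per list), as the first of a list, or as the 5 most alike; a list of further bipolar genes is not reported here. Depth was 11470945 to 30737547 reads per library. Limits from counts of 0 cover counting error only.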

Additional observations from a re-analysis of the deposited data

Results flagged for a closer look

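In the posterior eye of aged OVX animals, animal 19 stood apart from the other 5 for 3 of the bipolar genes. Grm6 was 33.2 CPM there, against 0 to 11.2 CPM in the others. Vsx1 was 9.40 CPM, against 0 to 2.56 CPM. Gng13 was 0.228 CPM, against 0 in the others, where 0 reads allow up to 0.214 CPM. No posterior eye library held more than 6 reads of Gng13, so its gap rests on few reads. The rod level of animal 19 was also the highest of its group, at 9.04 (mean log2 CPM). These were 3 of 72 groups of 6 libraries examined for a single distant library, and chance alone gives about 1 in 20.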

How the results depend on the processing

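No bipolar gene was called in any of the 12 comparisons within a tissue under any of 284 alternatives, and all 9 were lower in the posterior eye under each of 29. Library numbers within groups were not taken as pairs in the main fits, since not every same-numbered pair correlated over 0.1. Many posterior eye pairs of 1 number did deviate together, and the intervals given above do not account for that. In the retina 4 of 36 did (median 0.0227, against -0.0135 for other numbers). In the posterior eye 22 of 36 did (median 0.342, against -0.0947 for other numbers), with a range from -0.508 to 0.681. Of 24 libraries, 1 in the retina and 5 in the posterior eye were closest to their own number. The replicate block by these numbers gave 0 called genes in all 12 comparisons. The block by animal changed no call between tissues (9 and 0 of 9). Correlated pairs went from 5 to 3 after centring within groups. Signs of small, uncalled estimates turned as follows (log2). With the pigment epithelium level fitted, Isl1 was 0.013 and Vsx1 -0.032 for OVX in young retina, Gng13 -0.37, Cabp5 -0.035 and Vsx1 0.0028 for OVX in aged retina, and Vsx1 -0.021 for age in sham. With the lens level fitted, Cabp5 was -0.0053 (young), Grm6 0.052, Trpm1 0.0022 and Gng13 -0.15 (aged), Vsx1 0.022 (averaged), and Grm6 -0.070 and Vsx1 -0.093 (age in sham). With the long-gene index, Pcp2 was -0.030 and Cabp5 -0.044 (young), Vsx1 0.0035 (averaged) and Prkca 0.048 (age in sham). With limma-voom, Cabp5 was -0.0083 (young). With the rod level in the posterior eye, Prkca was 0.0079 and Cabp5 0.083. Against amacrine genes, the share differences of Gng13, Pcp2 and Isl1 were -2.80, -3.05 and -3.76 points. The cause of these turns was not tested. Leaving out 1 library gave, for OVX in young retina, Pcp2 -0.019 to 0.062, Cabp5 -0.045 to 0.062 and Vsx1 -0.051 to 0.13. For OVX in aged retina it gave Grm6 -0.073 to 0.015, Gng13 -0.16 to 0.21 and Isl1 -0.078 to 0.0096, and for the average Vsx1 -0.070 to 0.022. For age in sham it gave Grm6 -0.0022 to 0.11, Gng13 -0.11 to 0.21, Prkca -0.046 to 0.041 and Vsx1 -0.029 to 0.11. For Trpm1 in the posterior eye (averaged OVX) it gave -0.013 to 0.18, the lowest without aged OVX animal 19. Depth limits Gng13 in both tissues, and the spread between posterior eye libraries limits the rest there.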
